A study of Mus musculus with 2 samples.

Results

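The endothelial cells described here are those of the mouse dorsal meninges that carried more transcripts typical of veins and of barrier vessels than of capillaries. They made up 253 of the 5816 cells that passed quality filters, 65 from the Sham library and 188 from the TBI library. A cell was counted as a member when it held at least 1 unique molecular identifier (UMI, which stands for 1 captured transcript) of at least 2 of the 5 endothelial genes Pecam1, Cdh5, Egfl7, Flt1 and Podxl, held no UMI of the leukocyte gene Ptprc, and had more genes detected among Vwf, Cytl1, Tmem252, Slc38a5, Lrg1 and Slco1a4 than among the capillary genes Igfbp3, Gpihbp1, Rbp7, Btnl9, Cd300lg and Dll4. Cells with at least 2 endothelial genes and no Ptprc are called gated endothelial cells below, and those with more capillary genes are called capillary cells. There were 307 gated cells in Sham and 577 in TBI, of which 199 and 327 were capillary cells and 43 and 62 had equal numbers of both kinds of gene.

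Male wild-type C57BL/6 mice (C57BL/6J in the paper's methods), 10 weeks of age by their source label, received either a mild closed-skull impact (TBI) or a Sham procedure. The dorsal meninges, which lie away from the impact site, were collected 1 week later for droplet single-cell RNA-seq. Neither group carried a transgene or a gene deletion. The tissue of 5 mice was pooled into a single library per group, so animals cannot be told apart and no test between Sham and TBI was possible. Each difference below therefore compares these 2 libraries, and the intervals beside it cover counting error only. The Sham file held 9527334 UMIs in 2699 barcodes and the TBI file 15011079 UMIs in 4349 barcodes. The members together held 158419 UMIs in Sham and 493477 in TBI, with a median of 2171 and 2361 UMIs per cell and a median of 1197 and 1324.5 genes. At this depth, a gene with no UMI in the members could still have a level of up to 18.9 CPM (counts scaled to a total of 1000000) in Sham and 6.08 CPM in TBI (3 counts of the summed total). The libraries shared 20 barcode sequences, 14 of them after filtering, and no barcode was a member in both.

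Veins drain blood from the brain surface into the dural sinuses, and their endothelium is the usual site at which leukocytes leave the blood. Endothelial cells of the brain, pia and arachnoid form a barrier in which tight junctions close the gaps between cells and dedicated transporters carry glucose, amino acids and organic anions, whereas most vessels of the dura are fenestrated and leaky. Von Willebrand factor (Vwf) is a clotting glycoprotein stored in venous and arterial endothelium, Lrg1 encodes a secreted leucine-rich glycoprotein of venules, and Cytl1 encodes a secreted cytokine-like protein. Slc38a5 encodes an amino acid transporter and Slco1a4 an organic anion transporter of barrier endothelium, while Tmem252 encodes a small membrane protein. Barrier properties in brain endothelium depend on canonical Wnt signalling through Lef1 and other TCF factors, and fenestrae and caveolae carry a diaphragm built by Plvap.

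On the GRCm38 build that the deposited files use, all 6 of these genes are protein-coding: Vwf lies on chr6:125546774-125686679 (plus strand), Cytl1 on chr5:37735519-37739820 (plus), Tmem252 on chr19:24674008-24682233 (plus), Slc38a5 on chrX:8271133-8280179 (plus), Lrg1 on chr17:56119678-56122001 (minus) and Slco1a4 on chr6:141805440-141856199 (minus). Each UMI was assigned to the gene as a whole, so exons and UTRs are not told apart. Of the members with a Slc38a5 UMI, 8 of 9 in Sham and 33 of 34 in TBI also held Slco1a4, and of those with a Slco1a4 UMI, 8 of 20 and 33 of 67 also held Slc38a5. Cytl1 was found in 13 and 34 members, none of which held Slc38a5. Because the members were chosen by the detection of these genes, their counts are a description of the rule. The promoters of these 3 genes are shown because they stand for the barrier transporters of the rule and for another gene of the rule. They run 5′ to 3′ from 250 bases before to 50 bases after the RefSeq start on GRCm38.p6, and capitals mark a match to the ETS core AGGAAG (reverse strand CTTCCT) or the TCF/LEF core CTTTGA (reverse strand TCAAAG), which do not overlap each other here. The windows are chrX:8271131-8271430 (plus strand), chr6:141856171-141856470 (minus) and chr5:37735269-37735568 (plus). The window of Slc38a5 begins beside the gene start given above, so RefSeq places its start inside that gene.
Slc38a5: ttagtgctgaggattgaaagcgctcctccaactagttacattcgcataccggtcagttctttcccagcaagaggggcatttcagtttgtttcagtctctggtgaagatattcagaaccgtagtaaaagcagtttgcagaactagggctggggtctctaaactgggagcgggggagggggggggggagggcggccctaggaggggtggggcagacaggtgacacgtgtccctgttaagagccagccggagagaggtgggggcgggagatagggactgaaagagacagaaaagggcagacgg
Slco1a4: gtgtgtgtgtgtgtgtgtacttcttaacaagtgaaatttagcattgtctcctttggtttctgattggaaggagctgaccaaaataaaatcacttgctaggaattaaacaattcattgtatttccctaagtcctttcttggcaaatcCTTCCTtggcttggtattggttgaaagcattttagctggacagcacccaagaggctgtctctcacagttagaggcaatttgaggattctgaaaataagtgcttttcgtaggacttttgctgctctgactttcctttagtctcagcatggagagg
Cytl1: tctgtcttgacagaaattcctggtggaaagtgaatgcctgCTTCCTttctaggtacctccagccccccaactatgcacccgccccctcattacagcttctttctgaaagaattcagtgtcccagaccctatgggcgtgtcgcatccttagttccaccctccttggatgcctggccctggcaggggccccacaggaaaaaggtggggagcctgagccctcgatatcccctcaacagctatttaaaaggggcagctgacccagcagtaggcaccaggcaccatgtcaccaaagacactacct

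Slco1a4 and Cytl1 each held 1 ETS core, and Slc38a5 held neither motif. Across 32851 RefSeq promoters of the same length, 35.4% held the ETS core and 16.0% the TCF/LEF core. Lrg1 held 4 ETS cores and 1 TCF/LEF core, and Tmem252 held 1 TCF/LEF core and no ETS core.

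The members carried the genes that named them at levels far above other cells. Vwf was detected in 92.3% of members in Sham and 93.1% in TBI, against 0.503% and 1.53% of capillary cells. In B cells, which should lack it, 4 of 867 cells held a Vwf UMI (0.461%, exact 95% interval 0.126 to 1.18%) at a median depth of 3184 UMIs in Sham and 2729 in TBI. Lrg1 was detected in 63.1% and 66.5% of members, Slco1a4 in 30.8% and 35.6%, Tmem252 in 21.5% and 30.9%, Cytl1 in 20.0% and 18.1% and Slc38a5 in 13.8% and 18.1%. Vwf was thus the gene that admitted most cells, and the other 5 were each present in a part of them. Among capillary genes, Igfbp3 was left in 6.15% and 2.66% of members and Rbp7 in 0% and 0.532%. These values follow from the rule and were not tested.

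The margin of the rule was narrow for a share of the cells. In Sham, 21 members exceeded their capillary genes by 1 gene and 43 gated cells were tied just outside. In TBI, 45 members had a margin of 1 and 62 cells were tied. Members with a margin of 1 were shallower in Sham, at a median of 1143 UMIs against 1986 for a margin of 2, and in TBI, at 1676 against 2388. Vwf was present in 81.0% and 80.0% of members with a margin of 1 and in 11.6% and 12.9% of tied cells.

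**Figure D1:**
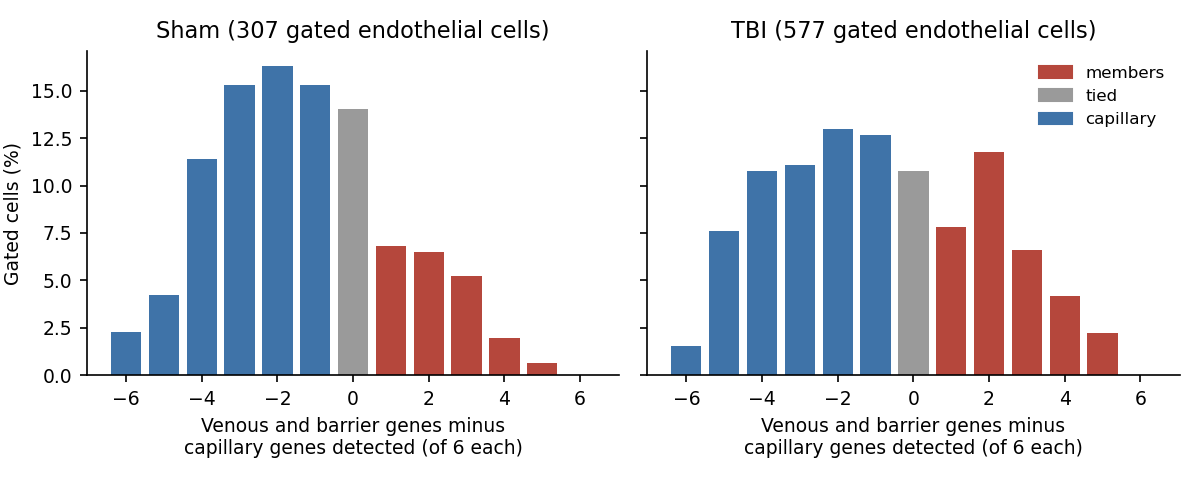
Share of gated endothelial cells (percent, vertical axis) by the number of venous and barrier genes detected minus the number of capillary genes detected, in Sham (307 cells, left) and TBI (577 cells, right). Members (red, positive values) made up 21.2% of gated cells in Sham and 32.6% in TBI, and tied cells (grey) 14.0% and 10.7%.

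Members took a larger share of the TBI library than of the Sham library. They were 3.18% of filtered cells in Sham (65 of 2043, exact 95% interval 2.46 to 4.04%) and 4.98% in TBI (188 of 3773, 4.31 to 5.73%), a difference of 1.80 percentage points (0.729 to 2.81). Within gated endothelial cells the share was 21.2% (16.7 to 26.2%) in Sham and 32.6% (28.8 to 36.6%) in TBI, a difference of 11.4 points (5.26 to 17.2). Capillary cells took 64.8% and 56.7% of gated cells, and all gated endothelial cells together took 15.0% and 15.3% of the filtered cells. The counting intervals of the member shares did not overlap on either denominator. With 1 library per group, a difference of this size cannot be told apart from one in dissection or dissociation, and the rule's dependence on depth bears on it: after each cell was thinned to 1000 UMIs the shares of gated cells were 23.2% and 33.1%.

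The members were not a single kind of cell. When the gated cells were clustered without the 17 rule genes and Ptprc, 8 clusters formed, and 81.0% of the members (75.6 to 85.7%) fell in the 2 clusters in which members were the majority. Cluster 3 held 40 Sham and 108 TBI members, which were 86.5% of its cells, and is called venous-like because Selp, Adgrg6 and Nr2f2 of the venous marker list stood among its 50 leading genes. Cluster 6 held 14 Sham and 43 TBI members and no other cell, and is called barrier-like because 12 listed barrier genes, among them Slc2a1, Cldn5, Lef1, Foxq1 and Lsr, stood among its leading genes. Ackr1, a chemokine receptor gene of venules, was also a leading gene of cluster 6. The 2 names therefore do not separate venous from non-venous cells. Cluster 5 held 8 Sham and 14 TBI members beside 26 and 48 capillary cells, and is called arterial-like for 9 listed genes that include Gja5, Sema3g and Gkn3. The smooth muscle gene Acta2 led that cluster, although it was detected in 11.6% of its cells.

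Venous-like cells were 61.5% of members in Sham (48.6 to 73.3%) and 57.4% in TBI (50.04 to 64.6%). Barrier-like cells were 21.5% (12.3 to 33.5%) and 22.9% (17.1 to 29.5%), and arterial-like cells 12.3% (5.47 to 22.8%) and 7.45% (4.13 to 12.2%). The intervals of the libraries overlapped for each of the 3. The other 3 Sham members lay in 2 unnamed clusters led by Dgkh and Penk. The other 23 TBI members lay in these 2, in a capillary-like cluster (2 members), and in a fibroblast-like and an immune-like cluster with 3 members each.

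**Figure D2:**
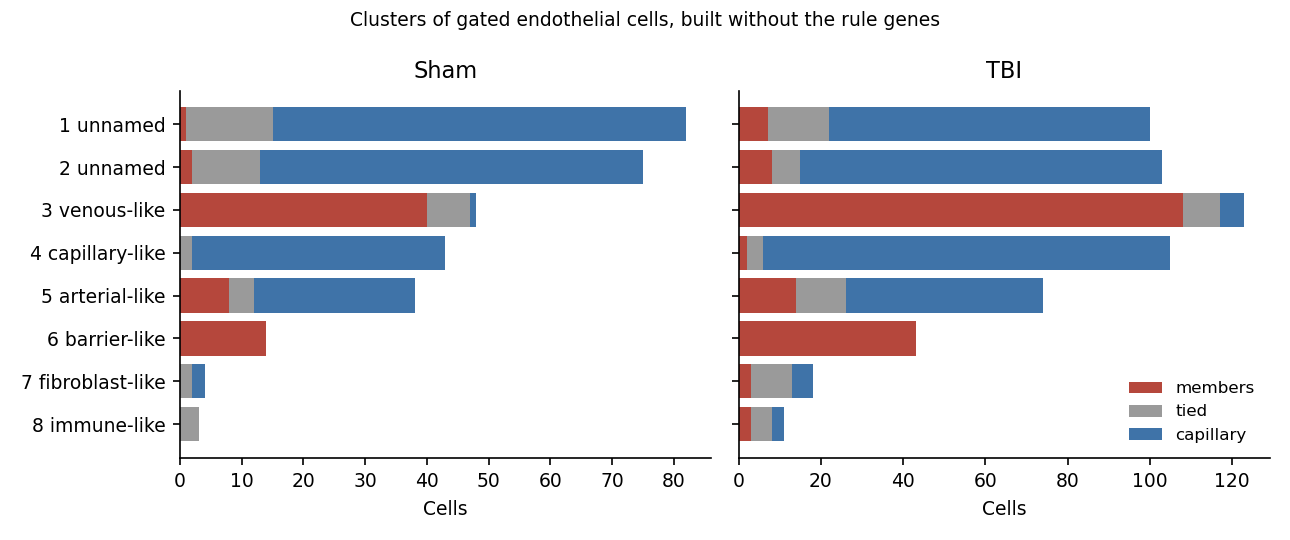
Number of gated endothelial cells (horizontal axis) in each cluster built without the rule genes, in Sham (left) and TBI (right, on its own scale), split into members (red), tied cells (grey) and capillary cells (blue). The venous-like cluster held 40 and 108 members, and all 14 and 43 cells of the barrier-like cluster were members.

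The overlap of venous and barrier genes of the rule is given as a description, since these genes chose the members. By rule genes alone, 42 Sham and 113 TBI members held Vwf or Cytl1 without Slco1a4 or Slc38a5, 18 and 63 held both kinds, 3 and 5 held a transporter alone and 2 and 7 held neither. Of the barrier-like cells, 12 of 14 and 43 of 43 held both kinds. Vwf had a level of 3810 CPM in venous-like cells and 3613 CPM in barrier-like cells in Sham, and 4237 and 2804 CPM in TBI. It was detected in 97.5% and 98.1% of venous-like cells and in all barrier-like cells of both libraries.

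Plvap (chr8:71497765-71511752, minus strand) and the glucose transporter gene Slc2a1 (chr4:119108711-119137983, plus strand), neither of which was in the rule, were each detected in a part of the members. Plvap was detected in 35 of 65 Sham members and 117 of 188 TBI members, and Slc2a1 in 18 and 70. Both were found together in 4 and 26. A member with no UMI of a gene may still express it. Slc2a1 occurred with Slco1a4 in 12 and 48 members.

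The levels below describe clusters that were built without the rule genes, from other genes of the same cells, and named by some of the genes below. Slc38a5 and Cytl1 are rule genes, which chose the members. The levels therefore carry no test. In venous-like cells the Plvap level was 2148 CPM in Sham and 3442 CPM in TBI, against 0 and 8.29 CPM in barrier-like cells. Emcn, a surface mucin of venous and capillary endothelium, was at 1479 and 1594 CPM against 489 and 415 CPM. Plvap was detected in 80.0% and 90.7% of venous-like cells, and in 25.0% and 28.6% of arterial-like cells. Selp, the leukocyte adhesion receptor P-selectin, was at 173 and 170 CPM in venous-like cells and at 0 and 49.8 CPM in barrier-like cells. Nr2f2, a transcription factor of venous identity, was at 475 and 561 CPM against 263 and 166 CPM.

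Barrier-like cells carried several, but not all, transport and junction genes of the blood-brain barrier. Slc2a1 was at 1882 CPM in Sham and 3028 CPM in TBI, against 43.2 and 107 CPM in venous-like cells. Bsg, which encodes the chaperone of monocarboxylate transporters basigin, was at 12571 and 14192 CPM against 410 and 712 CPM. Cldn5, the main claudin of endothelial tight junctions, was at 4328 and 4122 CPM against 151 and 90.2 CPM. Slc38a5 was at 903 and 1236 CPM in barrier-like cells and had no UMI in venous-like cells, whose limits for 0 counts were 32.4 and 10.0 CPM. The Wnt effector Lef1 was at 602 and 448 CPM in barrier-like cells against 32.4 and 16.7 CPM, and the forkhead factor Foxq1 at 565 and 431 CPM against 21.6 and 26.7 CPM. Each of these genes was higher in barrier-like cells in both libraries. The lipoprotein receptor gene Lsr, whose product also sits at tricellular junctions, and Abcb1a, the efflux pump P-glycoprotein, were higher there as well, at 903 and 539 CPM and at 1280 and 805 CPM. So was the amino acid transporter gene Slc7a5, at 903 and 257 CPM against 21.6 and 3.34 CPM. Other transporter genes were scarce in barrier-like cells, with 1 UMI in Sham and 2 in TBI for Mfsd2a and 0 and 4 for Slc19a3.

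Arterial-like members rested on 8 and 14 cells, with limits for 0 counts of 91.8 and 159 CPM. They carried the matrix protein gene Mgp at 8720 and 11486 CPM and Cytl1 at 887 and 2170 CPM. Cytl1 was at 291 and 485 CPM in venous-like cells and had no UMI in barrier-like cells. A single cell of 16287 UMIs supplied 10.3% of all member UMIs in Sham, lay in this cluster and had no Vwf UMI.

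**Figure D3:**
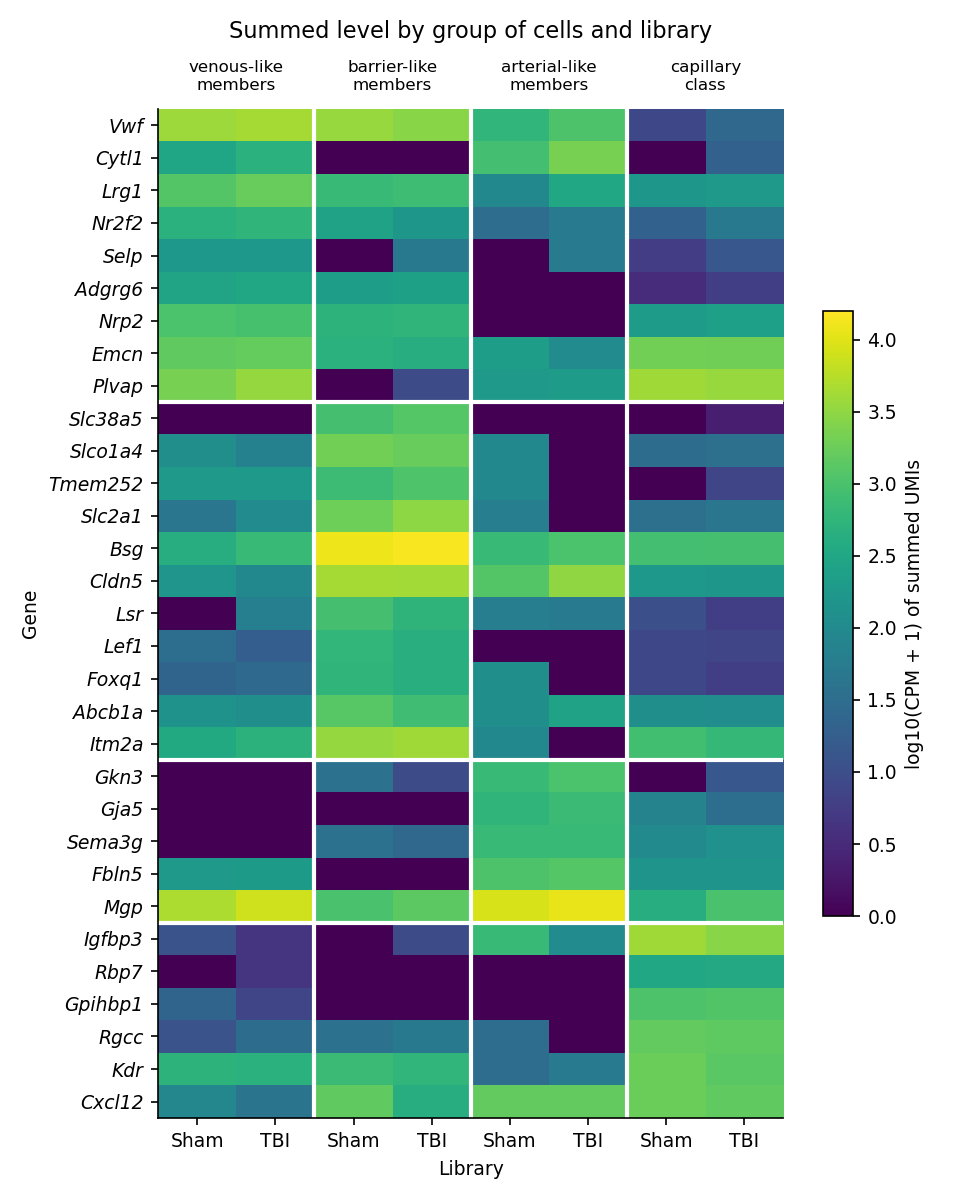
Summed level of selected genes (rows) as log10(CPM + 1) in venous-like, barrier-like and arterial-like members and in capillary cells, with Sham and TBI side by side in each block. Plvap fills the venous-like and capillary columns and leaves the barrier-like columns at 0 and 8.29 CPM, whereas Slc38a5, Slc2a1, Bsg and Cldn5 are highest in the barrier-like columns.

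Against capillary cells, whose genes entered the rule, the members can only be described. Of 6086 genes with at least 50 UMIs over members and capillary cells, 205 were at least 2-fold higher in members in both libraries (3.37%) and 276 at least 2-fold lower (4.53%). The genes with the largest ratios were not limited to the rule. Ptn, which encodes the secreted growth factor pleiotrophin, was at 612 CPM in Sham members and 963 CPM in TBI members against 12.1 and 19.2 CPM in capillary cells. Adgrg6, an adhesion G protein-coupled receptor gene, was at 202 and 257 CPM against 2.43 and 5.13 CPM. Both were higher in members by more than the counting error in both libraries. Mal, Ccdc141, Pla2g4a, Ocln, Ctnnal1, Pde3a, Ackr1 and Prr15 also led this list, with Ptgs2, the inducible cyclooxygenase, which was at 75.7 and 156 CPM against 2.43 and 1.28 CPM.

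Other lists of genes were counted at 20 or more UMIs, against a background of 4.16% of 9016 genes higher and 4.1% lower. Of 10 other venous markers, 7 were at least 2-fold higher in members in both libraries, and Emcn was the gene that was lower in both. Of 15 barrier transporter genes 9 were at least 2-fold higher and none lower, and of 14 genes of Wnt signalling and barrier control 6 were higher and 1, the norrin co-receptor Tspan12, lower. Of the 8 tight junction genes 3 were higher, namely Cldn5, Ocln and Lsr. All 9 other capillary markers were lower in both libraries, 7 of them at least 2-fold. Of 41 interferon-induced genes 38 were lower in both libraries and 9 at least 2-fold lower, and 13 of 16 MHC class I genes were lower with none past 2-fold, where 34.8% of all genes were lower and 28.7% higher in both libraries by any size. Rgcc, a cell cycle regulator gene of capillary endothelium, was at 101 and 81.1 CPM in members against 1524 and 1425 CPM in capillary cells, and the antiviral gene Rsad2 at 12.6 and 10.1 CPM against 284 and 339 CPM. Ramp3, Penk, Jam3, Cd24a, Prdm1, F2r, Ssu2, Fut4, Olfr1396 and Gm12002 were the other leading genes on that side. Of the 7 lymphatic markers, Ccl21a and Reln had no UMI in any member. The list as a whole held 12 UMIs in Sham members and 51 in TBI members, with Flt4 the most abundant.

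Members and capillary cells also differed in measures of RNA quality. The median share of mitochondrial UMIs was 3.77% in Sham members and 3.63% in TBI members, against 1.65% and 1.88% in capillary cells. Gm42418, a locus that overlaps ribosomal RNA sequence, took 9.89% of member UMIs in Sham and 5.02% in TBI, against 5.27% and 3.63% in capillary cells. In the venous-like members it took 12.99% and 5.69%, and in barrier-like members 3.32% and 3.03%. It thus moved with the library in venous-like cells, and counts with it left out of the totals are given below.

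Between the libraries most genes of the members differed little. Of 2438 genes with at least 50 UMIs over both sums, 79 were at least 2-fold higher in TBI (3.24%) and 35 at least 2-fold lower (1.44%). Over 5603 genes with at least 20 UMIs the corresponding shares were 6.89% and 3.41%, and the median log2 ratio of TBI over Sham was 0.04. When Gm42418, Lars2, Gm26917, AY036118 and Malat1 were left out of the totals, 61 genes were higher and 53 lower, and the median of all genes was 0.10 lower on the log2 scale. The log2 ratios were computed from summed UMIs with 0.5 added to each sum, and the bracketed ranges are exact 95% intervals for counting error.

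Among barrier transporters Slc2a1 was higher in TBI, with 56 UMIs in 18 Sham members (354 CPM) and 404 UMIs in 70 TBI members (819 CPM), a log2 ratio of 1.201 (0.81 to 1.64). The interval lay above 0 within barrier-like cells as well, where the ratio was 0.67 (0.26 to 1.14). Bsg was at 2601 CPM in Sham and 4014 CPM in TBI (0.62, 0.47 to 0.78). The ratio of Bsg was 0.17 (0.01 to 0.35) within barrier-like cells and 0.78 (0.29 to 1.33) within venous-like cells. Barrier-like cells, in which most UMIs of both genes lay, held 16.8% of member UMIs in Sham and 24.4% in TBI.

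Slc7a5, Slc7a1 and Slco1c1 were lower in TBI, while Slc38a5, an amino acid transporter gene of the rule, was at 151 and 306 CPM (0.99, 0.39 to 1.70), which is a description. Slc7a5, the large neutral amino acid transporter, had 35 UMIs in Sham (221 CPM) and 36 in TBI (72.95 CPM), a log2 ratio of -1.60 (-2.31 to -0.88). Slc7a1, a cationic amino acid transporter, was at 94.7 and 32.4 CPM (-1.55, -2.66 to -0.43), and Slco1c1, the thyroxine carrier, at 75.7 and 22.3 CPM (-1.76, -3.09 to -0.46). Within barrier-like cells the 3 ratios were -1.82 (-2.63 to -0.98), -2.06 (-3.36 to -0.73) and -2.18 (-3.53 to -0.84). The last of these rested on 11 UMIs in 2 of 14 Sham cells and 11 UMIs in 3 of 43 TBI cells. These 3 were the transporters at least 2-fold lower, while Slc2a1 and the iron exporter gene Slc40a1 were those at least 2-fold higher, among 15 measured. Of all 5603 genes, 3.41% were at least 2-fold lower and 6.89% at least 2-fold higher. Slc40a1 had 1 UMI in Sham and 27 in TBI (2.56, 0.51 to 8.47), and 1 and 20 within barrier-like cells (1.59, -0.50 to 7.51). The median of the 15 was 0.36 in members and 0.04 in capillary cells, but Slc7a5 had a capillary ratio of -1.46 (-2.53 to -0.46), from 53.4 to 19.2 CPM. Of 8 tight junction genes 0 were past 2-fold either way and the median was 0.11, and Cldn5 was at 1092 and 1200 CPM (0.13, -0.11 to 0.39). Of 13 Wnt and barrier control genes none was past 2-fold, and the median was -0.14. Itm2a, a membrane protein gene of barrier endothelium, was at 871 and 1342 CPM (0.62, 0.36 to 0.90), and its ratio within barrier-like cells was 0.20 (-0.12 to 0.54).

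Of 11 genes of leukocyte adhesion and traffic 2 were at least 2-fold higher in TBI and 1 was lower, against 6.89% and 3.41% of all genes. The 2 were Ackr1 and Cd99l2, and Cd99l2 was at 37.9 and 81.1 CPM (1.00, -0.15 to 2.63), within counting error. Ackr1, the atypical chemokine receptor of venules, had 4 UMIs in Sham and 72 in TBI, or 25.2 and 146 CPM (2.37, 1.11 to 4.45). It lay mostly in barrier-like cells, with 4 UMIs in 2 of 14 cells in Sham and 67 UMIs in 18 of 43 cells in TBI, where the ratio was 1.73 (0.46 to 3.80). It was at 0 and 6.41 CPM in capillary cells. Vcam1, the ligand of the leukocyte integrin VLA-4, was at 448 and 444 CPM over all members (-0.02, -0.41 to 0.39). Its ratio was 1.09 (0.34 to 2.02) in venous-like cells, where 25.0% and 30.6% of cells held it, and -1.16 (-1.66 to -0.64) in barrier-like cells, where 28.6% and 51.2% held it and the Sham level came from 50 UMIs in 4 of 14 cells. The difference between these ratios was not tested. Icam1 was at 183 and 247 CPM (0.41, -0.16 to 1.07) and Selp at 101 and 128 CPM (0.31, -0.47 to 1.23), both within counting error. The gene that was lower was Cxcl12, a chemokine that retains lymphocytes and is also listed as an arterial marker, at 688 and 249 CPM (-1.47, -1.85 to -1.08). Cxcl12 was detected in 23.1% of Sham and 24.5% of TBI members. In Sham, 50 of its UMIs lay in the 8 arterial-like cells, where its ratio was 0.02 (-0.71 to 0.69), and 39 in barrier-like cells. Its ratio was -1.86 (-2.49 to -1.21) in barrier-like cells, where 28.6% of 14 Sham cells and 51.2% of 43 TBI cells held it, and -0.27 in capillary cells.

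Plvap was at 1490 CPM in Sham and 2274 CPM in TBI (0.61, 0.41 to 0.82), and at 3943 and 3580 CPM in capillary cells. Within venous-like cells the Plvap ratio was 0.68 (0.46 to 0.91). Mgp, an inhibitor of calcification, was at 4772 and 6055 CPM (0.34, 0.23 to 0.46) over all members and had a ratio of 0.73 (0.59 to 0.88) in venous-like cells. Mgp also moved in other cells: it was found in 2.94% of B cells in Sham and 27.5% in TBI, with 9.89 and 143 CPM, and in capillary cells it was at 413 and 1001 CPM. The part of free RNA in the Mgp ratio was not tested.

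Of 15 MHC class I genes, 13 had a ratio above 0, 3 had an interval above 0 and none was past 2-fold. Of all 5603 genes, 2996 had a ratio above 0 and 372 an interval above 0. The class I median was 0.27, against 0.10 for the same genes in capillary cells. B2m, the light chain of class I molecules, was at 751 CPM in Sham and 1248 CPM in TBI (0.73, 0.45 to 1.03). In venous-like cells B2m was at 561 and 1347 CPM, with a ratio of 1.25 (0.84 to 1.71), and in barrier-like cells the ratio was 0.47 (-0.16 to 1.22). H2-D1 was at 1692 and 2067 CPM (0.29, 0.09 to 0.49) and H2-K1 at 1288 and 1560 CPM (0.27, 0.05 to 0.51). Leaving the Gm42418 group of genes out of the totals shifted the median log2 ratio by -0.10. The lower bounds of H2-D1 and H2-K1 were smaller than that shift. B2m was the class I gene with the highest ratio among those whose interval lay above 0. Interferon-induced genes were divided, with 15 of 31 above 0 and a median of -0.01. Xaf1 and Rtp4 were at least 2-fold higher, while Eif2ak2, Ifih1 and Ifi35 were at least 2-fold lower, with Ifi35 at 114 and 54.7 CPM (-1.07, -1.97 to -0.11). The shares of all genes past these limits were 6.89% and 3.41%. Ly6e and Ifitm3 were the most abundant genes of the list, at 2620 and 3727 CPM (0.51, 0.35 to 0.67) and at 1515 and 2180 CPM (0.52, 0.32 to 0.73).

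MHC class II genes, which are typical of antigen-presenting cells, had a median ratio of 1.72 over 4 genes, 3 of them at least 2-fold higher, against 6.89% of all genes. Cd74, the class II invariant chain, was at 227 and 527 CPM (1.196, 0.71 to 1.76), and H2-Aa at 37.9 and 195 CPM (2.25, 1.19 to 3.84). In venous-like and barrier-like cells alone the ratio was 0.12 (-0.41 to 0.71) for Cd74, -0.43 (-1.48 to 0.83) for H2-Ab1, 1.43 (0.33 to 3.03) for H2-Aa and 1.82 (0.38 to 4.36) for H2-Eb1. Macrophage markers moved with them: 5 of 7 reached 20 UMIs and all 5 were at least 2-fold higher in TBI, their sum over the 7 genes was 44.2 and 586 CPM, Lyz2 was the most abundant, and none of the 7 was at 0 in the members of both libraries. In capillary cells the same sum was 70.4 and 692 CPM. C1qb and C1qc had no UMI in Sham members and were at least 3.42-fold and 4.17-fold higher in TBI, counted against 3 UMIs over the group. With these genes at that bound the median of the macrophage list was 2.97. The part of macrophage RNA in the class II ratios was not tested.

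Immediate early genes, which respond within minutes to injury and to tissue dissociation, were mixed. Of 15 genes 10 had a ratio above 0, against 2996 of all 5603 genes, and the median was 0.37 in members and 0.17 in capillary cells. Zfp36, which destabilises inflammatory mRNAs, was at 94.7 CPM in Sham and 278 CPM in TBI (1.51, 0.78 to 2.43) and was the gene past 2-fold. Ier3 was at 189 and 359 CPM (0.90, 0.36 to 1.53), Junb at 410 and 663 CPM (0.68, 0.30 to 1.10) and Fos at 120 and 217 CPM (0.82, 0.14 to 1.64). In contrast Jund was at 309 and 158 CPM (-0.97, -1.50 to -0.42). The NF-kB inhibitor gene Nfkbia differed between kinds of member, with a ratio of 1.53 (0.93 to 2.27) in venous-like cells and -0.52 (-0.99 to -0.00) in barrier-like cells, and the difference was not tested.

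Among regulators of endothelial quiescence, Sox18, a SOX factor of blood and lymphatic vessels, was at 164 CPM in Sham and 363 CPM in TBI (1.12, 0.55 to 1.80). It was found in 15.0% of venous-like cells in Sham and 52.8% in TBI, and its ratio there was 2.12 (1.18 to 3.45). Sox18 was the gene past 2-fold among 11 in that list, whose median was -0.22. The flow-responsive factor Klf2 was at 2001 and 1591 CPM (-0.33, -0.52 to -0.14). Klf2 had a ratio of -0.08 (-0.33 to 0.18) in venous-like cells and -0.85 (-1.23 to -0.45) in barrier-like cells, and Klf4 had 0.00 (-0.47 to 0.52) and -1.64 (-2.57 to -0.65). The VEGF receptor gene Flt1, a gene of the rule, was at 1982 and 1670 CPM over all members, with a ratio of -1.02 (-1.38 to -0.65) in barrier-like cells. These barrier-like values came from 14 Sham cells with 26570 UMIs.

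Of 13 genes of hemostasis and vascular tone none was past 2-fold, and 8 were above 0, against 2996 of all 5603 genes. Procr, the endothelial protein C receptor gene, was at 107 and 207 CPM (0.91, 0.20 to 1.78) and Ptgs2 had a ratio of 0.99 (0.16 to 2.06). Ptgis, the prostacyclin synthase gene, was at 69.4 and 134 CPM (0.89, 0.01 to 2.02). Ednrb, an endothelin receptor gene, was at 63.1 and 126 CPM (0.93, 0.02 to 2.12). These 4 were the genes of the list whose interval lay above 0, where 372 of all 5603 genes had such an interval. The lower bounds of Ptgis and Ednrb were smaller than the shift of -0.10 with the Gm42418 group of genes left out of the totals.

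Of 11 arterial markers 10 had a ratio below 0 over all members, 5 had an interval below 0 and 4 were at least 2-fold lower. Of all 5603 genes, 2607 had a ratio below 0, 205 had an interval below 0 and 3.41% were at least 2-fold lower. The median of the arterial markers was -0.81, against 0.06 in capillary cells. It was -0.49 when the richest cell for each gene was left out of each library. Gja5, the connexin of arterial endothelium, was at 114 and 28.4 CPM (-1.99, -3.12 to -0.91), and Sema3g, a semaphorin of arteries, at 152 and 40.5 CPM (-1.90, -2.84 to -0.98). Arterial-like cells held 20.6% of member UMIs in Sham and 3.83% in TBI, and 16287 of their 32682 Sham UMIs came from 1 cell. Within them the ratio of Gja5 was 0.44 (-0.69 to 1.52), that of Sema3g -0.01 (-1.14 to 1.01) and that of Gja4, another arterial connexin, 1.76 (0.69 to 2.98). The summed level of the arterial list, led by Mgp, was 6697 CPM in Sham members and 6922 CPM in TBI members. All 5 measured Notch genes were below 0, with a median of -0.82, or -0.50 when the richest cell for each gene was left out, against -0.23 in capillary cells. Of 15 basement membrane and matrix genes 6 were above 0, and the median was -0.30, or -0.054 when the richest cell for each gene was left out of each library. Sparc, which encodes a collagen-binding glycoprotein, was at 1389 and 965 CPM (-0.53, -0.76 to -0.29). Col18a1 was the matrix gene past 2-fold, at 126 and 24.3 CPM, and its ratio without the richest cell of each library was -0.71 in place of -2.35.

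**Figure D4:**
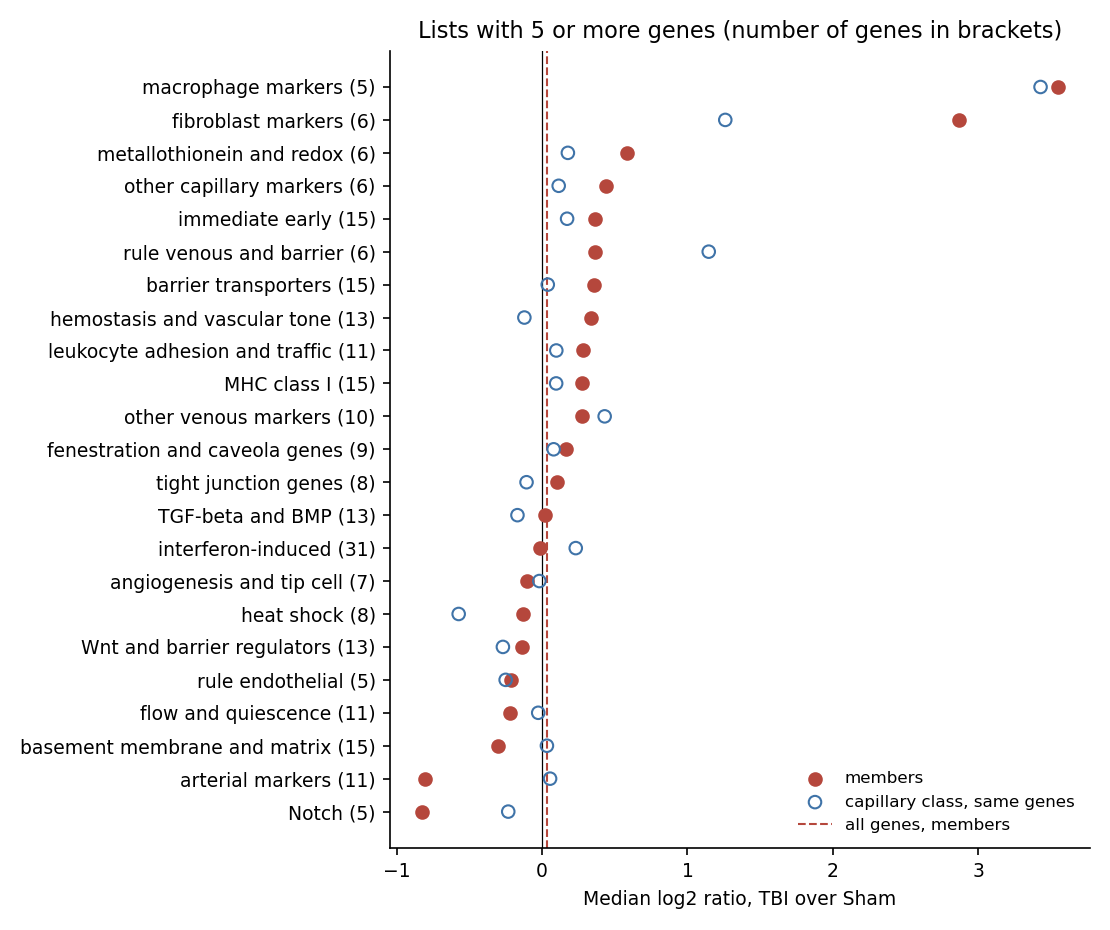
Median log2 ratio of TBI over Sham (horizontal axis) for each list with at least 5 genes at 20 or more UMIs in the members, in members (filled red) and for the same genes in capillary cells (open blue), with the median of all member genes (0.04) as a dashed line. Macrophage and fibroblast markers lie far to the right in both kinds of cell, with genes at 0 UMIs entered with 0.5 added, and the arterial list lies at -0.81 in members and 0.06 in capillary cells.

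The 20 genes with the surest distance from 0 were mostly those of other cells. The 10 that were higher in TBI were S100a9, S100a8, Retnlg, Ccl5, Lyz2, Gpx3, Dcn, Fcer1g, Col1a2 and H2-Eb1. S100a9 and S100a8, the calgranulins of neutrophils, had 1 UMI each in Sham and 342 and 289 UMIs in TBI. Retnlg, a neutrophil gene, had none and 113, which is at least 12.1-fold higher against 3 UMIs over the Sham group. A single TBI cell of 2675 UMIs in the immune-like cluster held 718 of the 744 UMIs of these 3 genes (96.5%). S100a8 was found in 17 of 188 TBI members, the richest cell included. Without the richest cell of each library S100a8 was left with 0 UMIs in Sham and 17 in TBI, and Retnlg with 0 and 2. The T cell chemokine gene Ccl5 had 1 UMI in Sham and 96 in TBI, and 95 of these lay in 1 barrier-like cell. Gpx3, an extracellular glutathione peroxidase gene, had 62 of 78 UMIs in 1 cell that was a predicted doublet.

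Dcn, the fibroblast proteoglycan decorin, was at 56.8 CPM in Sham and 363 CPM in TBI (2.60, 1.72 to 3.83), in 7.69% and 22.3% of members, and 78 of its 179 TBI UMIs lay in 1 venous-like cell. The ratio of Dcn in capillary cells was 2.52, and in B cells Dcn was found in 0.905% and 7.53%. Fibroblast markers moved together: 6 of 7 reached 20 UMIs, 5 were at least 2-fold higher, the sum over the list was 252 and 1232 CPM in members and 645 and 1329 CPM in capillary cells, Igfbp5 was the most abundant, and none was at 0 in both libraries. Among all 5603 genes, 6.89% were at least 2-fold higher. Lum had no UMI in Sham, and with Lum at its bound the median of the fibroblast list was 2.20. Igfbp5, which encodes an insulin-like growth factor binding protein, was at 152 and 539 CPM (1.80, 1.23 to 2.50) in members and at 328 and 393 CPM in capillary cells. The part of fibroblast RNA in these ratios was not tested.

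The 10 genes that were lower in TBI were Myh11, Acta2, Rgs5, Myl9, Hba-a1, Olfml2a, Tagln, Hbb-bs, Hba-a2 and Fbln2. Myh11, Acta2, Myl9 and Tagln belong to the contractile apparatus of smooth muscle and Rgs5 marks pericytes. The Sham cell of 16287 UMIs held 469 of 483 UMIs (97.1%) of these 5 genes in Sham members. The mural list, which is left out of the plot of list medians, had a median of -4.95 over 4 genes and a sum of 2822 CPM in Sham and 134 CPM in TBI, with Rgs5 the most abundant and none of the 9 genes at 0 in both libraries. Without the richest cell of each library Rgs5 was left with 1 UMI in Sham and 18 in TBI, Myh11 with 0 and 2, and Acta2 with 3 and 4. The low mural genes thus rested mostly on 1 cell of 65. For Olfml2a, 41 of 53 Sham UMIs lay in 1 cell. Fbln2 had 60 of its 65 Sham UMIs in arterial-like cells, where its ratio was 0.10 (-0.54 to 0.71).

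Hemoglobin genes behaved otherwise. Hbb-bs was at 947 CPM in Sham members and 150 CPM in TBI members (-2.65, -3.08 to -2.25), in 81.5% and 31.4% of members, and its ratio without the richest cells was -2.57. All 4 hemoglobin genes were at least 2-fold lower, against 3.41% of all genes. The list sum was 2014 and 286 CPM in members and 2116 and 375 CPM in capillary cells. In B cells Hbb-bs was found in 77.6% and 33.6%, so the difference was also present in cells that do not make hemoglobin. The choroid plexus gene Ttr, by comparison, was found in 15.4% and 38.3% of members and in 14.5% and 40.2% of B cells.

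**Figure D5:**
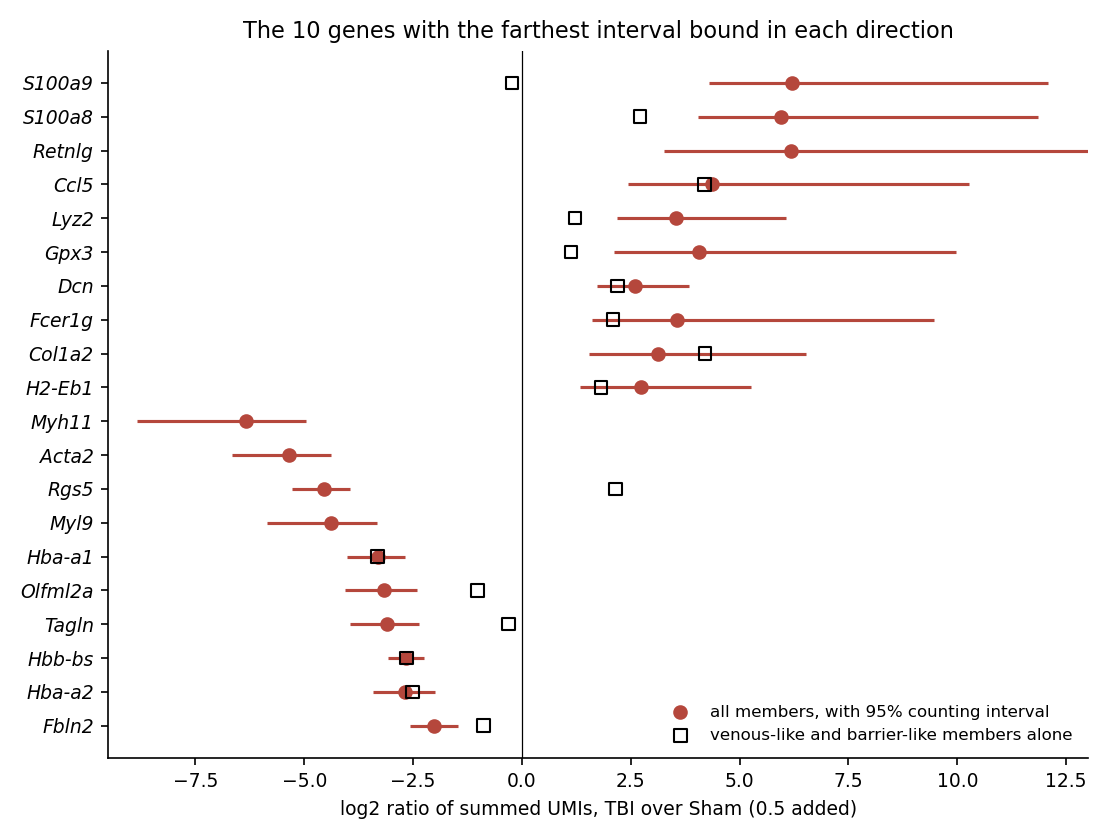
Log2 ratio of TBI over Sham (horizontal axis) for the 10 genes in each direction with the surest distance from 0, over all members (red point with its 95% counting interval, which has no upper end for Retnlg and is drawn to the edge) and in venous-like and barrier-like members alone (open square). Genes with 3 UMIs or fewer in both libraries have no square, the squares of S100a9 (-0.23, from 1 and 4 UMIs) and Rgs5 (2.15, from 1 and 23) lie on the other side of 0, and Hbb-bs (-2.65) and Dcn (2.20) kept their direction.

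Of the 114 genes past 2-fold in either direction, 13 had more than 50% of the UMIs of their higher library in 1 cell, 5 of the 79 that were higher and 8 of the 35 that were lower. Restricted to the venous-like and barrier-like members, 79 genes were at least 2-fold higher and 27 at least 2-fold lower among 1913 tested. In these 2 clusters Slc2a1 had a log2 ratio of 1.05, Ackr1 2.17, Slc7a5 -1.52, Cxcl12 -1.44, B2m 1.05, Sox18 1.98, Plvap 0.55 and Mgp 0.62. Each of these kept the direction it had over all members.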

How the data were processed

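Single-cell RNA-seq libraries were made by the authors from pooled dorsal meninges with 10x Genomics 3′ chemistry, and the deposited matrices hold raw UMI counts per gene and barcode on mm10. The submitters' processing notes name Cell Ranger 2.1.1 and Seurat 3.9.9. Strand handling of the counts is not stated in the sources used here, so overlapping genes, and near-identical genes such as the hemoglobin and MHC families, are uncertain. Cells (2043 and 3773) were barcodes with 150 to 5000 genes in which mitochondrial genes took up to 20% and hemoglobin genes up to 5% of UMIs. Doublets were predicted from simulated doublets (33 Sham and 114 TBI cells) and kept. Gated cells were clustered with leidenalg 0.10.2 (resolution 0.8, 20 principal components, 2000 variable genes) without the rule genes, and names required 3 or more listed markers within the 50 leading genes of a cluster.

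UMIs were summed per library over the members and scaled to CPM. Log2 ratios had 0.5 added to each sum, and intervals were exact binomial (95%), computed in Python 3.11.15 with scipy 1.17.1. Differences between shares have Newcombe intervals. Genes were called at 2-fold with at least 50 UMIs, and lists were counted at 20. On simulated counts for TBI over Sham (2396 genes), 100% of 4-fold, 44.4% of 2-fold and 1.20% of unchanged genes were called. The simulated counts had counting error but no spread between cells or libraries. These shares therefore do not apply to genes whose UMIs lie in a few cells. PCR copies are collapsed by UMIs, and all intervals cover counting error only. The genes named are those of 34 lists, the 10 in each direction of TBI over Sham whose interval's nearer bound lay farthest from 0, and the 12 in each direction with the largest smaller ratio over capillary cells, of which 1 is not reported here. The members and lists were chosen with earlier results of these data known. Alternatives covered filters, doublets, the rule, thinning, scaling, count minimums and the added count.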

Additional observations from a re-analysis of the deposited data

Results flagged for a closer look

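Rgs5, a pericyte gene, moved in opposite directions in members and in capillary cells. Its log2 ratio of TBI over Sham was -4.56 in members, from 1120 CPM to 46.6 CPM, and 1.72 in capillary cells, from 60.7 CPM to 204 CPM. The difference was not tested, since each group is 1 library. Of the Sham UMIs in members, 99.4% lay in 1 cell, and without the richest cell of each library the member ratio was 1.99, from 1 UMI in Sham and 18 in TBI.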

How the results depend on the processing

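The larger member share in TBI kept its direction under all 7 alternatives, from 1.44 to 1.89 points of filtered cells and from 9.88 to 11.4 points of gated cells. Counts of genes past 2-fold depended on the minimum of UMIs and on single cells. The 79 genes higher in TBI became 10 and the 35 lower 7 after thinning to 1000 UMIs, 150 and 60 with a mean over cells, 831 and 541 at 10 UMIs, 27 and 10 at 100 UMIs, and 1615 and 1814 with no minimum. Leaving out the richest cell of each gene in each library gave 164 and 17 and moved the median of all genes by 0.18, since 1 of 65 cells takes more UMIs than 1 of 188. Without Gm42418, Lars2, Gm26917, AY036118 and Malat1 in the totals, 53 genes were lower. Of list medians, 17 lay above 0, and 10 did after thinning. Against capillary cells the 205 higher genes became 85 after thinning, 513 at 10 UMIs, 113 at 100 UMIs and 1430 with no minimum, and the 276 lower genes became 160, 437 (10 UMIs) and 490 (no minimum). Fewer genes or UMIs reach the minimum after thinning or at 100 UMIs.

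The sign of the ratio differed for the genes and lists below, and each of these genes was left with 0 or 1 UMI in Sham, so that its value depends on the 0.5 added. With venous-like and barrier-like clusters alone the ratios were 0.058 for the rule's capillary list, 0.92 for the mural list, -0.23 for S100a9 (1 UMI in Sham and 4 in TBI) and 2.15 for Rgs5 (1 and 23). With a margin of 2 genes they were 2.05 for the mural list, -0.33 for S100a9 (1 and 4), 2.05 for Rgs5 (1 and 23) and 3.13 for Tagln (0 and 16). Without Lrg1 in the rule they were 0.94 for the mural list and 2.17 for Rgs5 (1 and 23), and after thinning 0.11 for Acta2 (1 and 4) and 3.73 for Rgs5 (0 and 18). Without the richest cells they were 0.13 for the mural list and 1.99 for Rgs5 (1 and 18). No ratio was formed where a gene had 3 UMIs or fewer in both libraries, as for Retnlg, Myh11, Acta2, Myl9, Ccl5 and S100a9 under some of these settings. The alternatives on the richest cells, on the Gm42418 group of genes and on the clusters alone were chosen after seeing the data. No paired analysis was possible because each group is 1 pooled library, and no replicate could be left out. Sham members limit the precision: a gene needs 3 UMIs to exceed a count of 0, which is 18.9 CPM there and 113 CPM in barrier-like cells.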

Other observations

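Of 9 fenestration and caveola genes 5 had a log2 ratio of TBI over Sham above 0, against 2996 of all 5603 genes, with a median of 0.16. Cavin1, a coat protein gene of caveolae, was at 783 CPM in Sham members and 507 CPM in TBI members (-0.63, 95% counting interval -0.94 to -0.31), and Cavin3 at 385 and 549 CPM (0.50, 0.11 to 0.94). Without the richest cell of each library the Cavin1 ratio was -0.17. In venous-like cells the ratio was -0.22 (-0.65 to 0.25) for Cavin1, 0.34 (0.05 to 0.65) for Cavin2 and 0.76 (0.25 to 1.34) for Cavin3, beside 0.68 (0.46 to 0.91) for Plvap, and those of Cav1, Cav2, Ehd2 and Ehd4 lay between 0.22 and 0.51.

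Heat shock genes had a median of -0.13 over 8 genes in members and -0.57 in capillary cells. Genes of TGF-beta and BMP signalling had a median of 0.02 over 13 genes, 7 of them above 0 against 2996 of all 5603 genes. Angiogenesis and tip cell genes had a median of -0.10 over 7. Metallothionein and redox genes had a median of 0.59 over 6 genes. Of 8 cell cycle genes, Mki67, Top2a, Ccnb1 and Pclaf had no UMI in the members. The cell cycle list as a whole held 1 UMI in Sham members and 14 in TBI members, with Tyms the most abundant. No B cell, T and NK cell, Schwann cell or platelet marker reached 20 UMIs. Of the barcodes that the filters removed, 2 of 656 in Sham and 2 of 576 in TBI met the gene rule.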
